A study of Mus musculus with 32 samples.

Results

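Integrins are cell-surface receptors made of an alpha and a beta subunit, and most of them bind proteins of the extracellular matrix. Transcripts of 10 integrin subunits were followed across mouse lung tumors in which the kinase Lkb1 (gene symbol Stk11) was intact, silenced or restored. The subunits were Itgav, Itgb1, Itgb3, Itgb5, Itgb6, Itgb8, Itga2, Itga3, Itga5 and Itga6, taken by gene symbol from 53558 genes in the files. They were selected on these data: Itgav and Itgb3 were chosen because both fell when Lkb1 was restored, and the other 8 as integrin subunits that epithelial cells can use. The fall of Itgav and Itgb3 on restoration is therefore given below as a description, with no test.

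RNA came from sorted neoplastic cells of 32 libraries, with totals of 1302482 to 5943951 expected counts. All mice carried KrasLSL-G12D and a Rosa26LSL-tdTomato reporter, and tumors were started by a lentivirus that delivers Cre into the airways. KT tumors had wild-type Lkb1, wild-type Trp53, no FLPo-ERT2 and no treatment, and by the study's methods they received less virus than the other Trp53 wild-type groups (n = 4). Non-restored tumors carried Lkb1XTR/XTR, a gene trap that Cre turns on to silence Lkb1 (n = 10 libraries). Of these libraries 4 came from tamoxifen-treated mice without FLPo-ERT2 and 6 from mice with FLPo-ERT2 that received corn oil vehicle. Restored tumors carried Lkb1XTR/XTR and FLPo-ERT2, a recombinase that removes the trap once tamoxifen is given (n = 7 libraries). For these non-restored and restored groups the study counts fewer mice than libraries, so by that count some libraries share a mouse. Trp53-deficient tumors also carried Trp53flox/flox and were non-restored (7 libraries from 4 animals, of which 2 animals received vehicle with FLPo-ERT2 and 2 received tamoxifen without it) or restored (4 animals). Treatment, where given, lasted 2 weeks, with tamoxifen in 4 mg doses. Trp53 wild-type tumors grew for 24 to 27 weeks and Trp53-deficient tumors for 16 to 19 weeks. By the study's methods the mice were young adults when tumors were started, within an age range shared by all such models. All restored libraries of both Trp53 backgrounds came from female mice. Of the others, 2 of 4 KT, 7 of 10 non-restored and 4 of 7 Trp53-deficient non-restored libraries did. In a bulk library, fewer cells of a type and less RNA per cell cannot be told apart.

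The labels were checked first. Stk11 had 0 to 2 counts in each non-restored library of both Trp53 backgrounds, 11.7 to 22.5 CPM in restored libraries, 8.42 to 14.9 CPM in Trp53-deficient restored libraries and 16.7 to 27.5 CPM in KT libraries, where CPM is the count relative to the library total after scaling for library size. Trp53 reached at most 6.51 CPM in the Trp53-deficient libraries and was at least 11.7 CPM in the others. The epithelial markers Epcam, Cdh1, Krt8, Krt18 and Nkx2-1 were present in every group, with summed levels between 1315 and 3339 CPM. Non-restored replicate 8 stood apart from its group. Its counts differed from those of the other 9 libraries by a chi-square per degree of freedom of 42.7 to 144, against 4.43 to 57.7 among those 9. It held 69.8 CPM of Nkx2-1 and 1458 CPM of Sftpc, both the lowest of its group.

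The alpha v subunit, encoded by Itgav, can pair with the products of Itgb1, Itgb3, Itgb5, Itgb6 and Itgb8. These pairs recognise short RGD motifs in vitronectin, fibronectin and the latent form of TGF-beta, and the αvβ6 and αvβ8 pairs are known for releasing active TGF-beta. The β1 subunit is the common partner of the matrix receptors, with α2 for collagen, α3 and α6 for laminin, and α5 for fibronectin. In lung epithelium, laminin receptors hold cells to the basement membrane, and αvβ6 is low in resting epithelium and induced by injury. β3 is best known outside epithelium, in αvβ3 on endothelium and in the platelet fibrinogen receptor, where it pairs with the product of Itga2b.

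Promoter sequence is shown for 4 subunits. Itgav is the alpha subunit that was chosen for its fall, and Itgb1 is the most abundant beta subunit. Itga2 is the subunit with the widest spread between libraries. Itgb5 was the only one of the 9 tested whose estimate was above 0 for restoration in Trp53 wild-type tumors. RefSeq entries on GRCm38.p6 were matched by symbol for 8 of the 10 genes, and Itgb3 and Itga6 had no entry. Each line gives the 250 bases upstream of the start site, 5′ to 3′ on the gene's own strand. They lie at chr2:83724147-83724396 (plus strand) for Itgav, chr8:128685404-128685653 (plus strand) for Itgb1, chr13:114932101-114932350 (minus strand) for Itga2 and chr16:33829415-33829664 (plus strand) for Itgb5. Capitals mark the GC box GGGCGG on either strand.
Itgav: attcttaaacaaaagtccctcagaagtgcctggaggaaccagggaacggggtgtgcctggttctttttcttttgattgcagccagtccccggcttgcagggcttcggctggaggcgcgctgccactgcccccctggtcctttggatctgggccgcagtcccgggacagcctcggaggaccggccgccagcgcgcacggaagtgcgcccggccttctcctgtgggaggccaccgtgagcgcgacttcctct
Itgb1: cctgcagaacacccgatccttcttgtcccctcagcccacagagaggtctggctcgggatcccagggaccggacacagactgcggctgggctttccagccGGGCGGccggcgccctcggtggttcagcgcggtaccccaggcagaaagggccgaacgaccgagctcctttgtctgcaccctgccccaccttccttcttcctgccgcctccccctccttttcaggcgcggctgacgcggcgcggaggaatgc
Itga2: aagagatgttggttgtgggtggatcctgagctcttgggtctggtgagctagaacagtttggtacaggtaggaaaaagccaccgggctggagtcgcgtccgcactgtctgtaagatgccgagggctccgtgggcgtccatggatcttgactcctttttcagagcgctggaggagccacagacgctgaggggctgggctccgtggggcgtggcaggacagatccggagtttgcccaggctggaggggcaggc
Itgb5: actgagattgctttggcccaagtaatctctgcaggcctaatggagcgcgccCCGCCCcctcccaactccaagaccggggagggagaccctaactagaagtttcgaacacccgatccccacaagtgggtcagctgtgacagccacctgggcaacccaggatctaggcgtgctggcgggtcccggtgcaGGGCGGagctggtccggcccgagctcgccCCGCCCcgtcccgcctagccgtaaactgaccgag
Of the 8 promoters, those of Itgb1, Itgb5, Itga3 and Itga5 held a GC box, with 1, 3, 3 and 2 copies. Among 27025 promoters of the same length 32.9% held at least 1 copy. The cAMP response element TGACGTCA, present in 1.62% of promoters, and the AP-1 motif TGANTCA, present in 6.87%, were found in none of the 8 windows. A search of letters in this window says nothing about binding. The G and C content was 64.4% for Itgav, 68% for Itgb1 and 52% for Itgb6, against a median of 52% over all promoters.

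Levels of different subunits were compared as TPM, the RSEM estimate of transcript abundance, which corrects for gene length. Itgb1 had the highest median in 4 of the 5 groups, from 157 TPM in KT to 249 TPM in Trp53-deficient restored tumors. The exception was Trp53-deficient non-restored tumors, where the median of Itga2 was 454 TPM against 264 TPM for Itgb1, with overlapping ranges. Itgav followed Itgb1 in the Trp53 wild-type groups, with medians of 69, 142 and 63.3 TPM in KT, non-restored and restored tumors, and its range did not meet that of Itgb1 in any of these 3 groups. Itga6 came next at 62.4, 64.2 and 51 TPM, and its range overlapped that of Itgav in each. Itgb6 and Itga3 lay between 20 and 63.2 TPM in every group by their medians. Itgb5, Itgb3 and Itga5 formed a low tier. Their medians were under 5 TPM in all groups, with the exception of Itgb3 at 9.73 TPM in non-restored and 13.1 TPM in Trp53-deficient non-restored tumors. Itgb8 had at most 17 counts in any library or animal and a highest median of 0.375 TPM. It was below the filter on low counts in every fit, so 9 of the 10 subunits were tested.

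**Figure D1:**
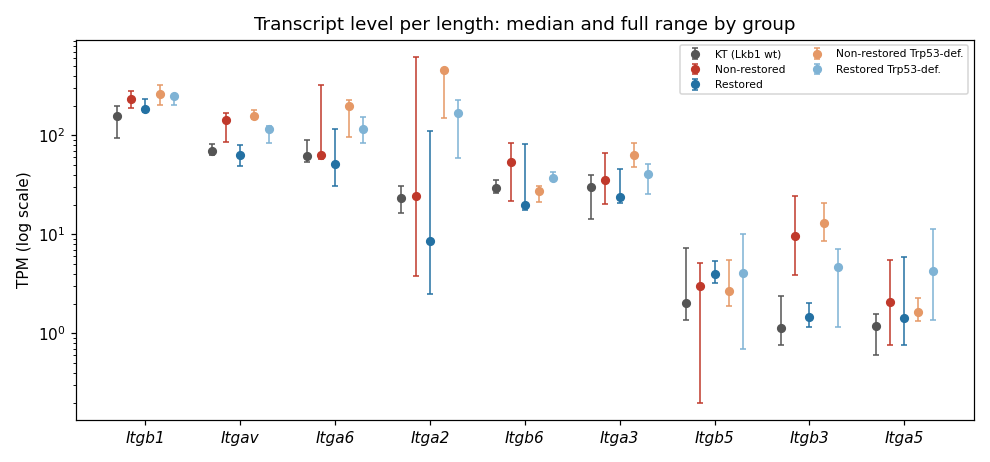
Transcript level per length of 9 integrin subunits in the 5 groups. The y axis is TPM on a log scale, points are group medians and bars run from the lowest to the highest library (animal in Trp53-deficient groups). Itgb1 stood highest in 4 groups, and the median of Itgb3 was 1.14 TPM in KT against 9.73 and 13.1 TPM in the non-restored groups.

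Among the beta subunits that can join alpha v, Itgb1 supplied most of the transcripts, with median shares of 78.3% to 87.1% of their summed TPM in the 5 groups. With Itgb1 left out, since it pairs with many alpha subunits, Itgb6 held the largest share. Its median share was 89.1% in KT, 80.9% in non-restored and 79.4% in restored tumors, and 59% and 78% in Trp53-deficient non-restored and restored tumors. Itgb3 held 3.76% in KT, 14.8% in non-restored and 5.14% in restored tumors by the median, and 31.6% and 9.54% in the Trp53-deficient groups. In non-restored tumors the share of Itgb3 ran from 5.95% to 52.5%, so the makeup differed between libraries of the same group. These are shares of transcripts, and no protein or receptor pair was measured.

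Itgav lies on GRCm38 chromosome 2 at chr2:83724397-83806916, plus strand. Its level was 347, 323, 357 and 292 CPM in the 4 KT libraries. In non-restored libraries it ran from 373 through a median of 641 to 739 CPM, and in restored libraries from 235 through 298 to 378 CPM. Restored libraries overlapped the KT range, and the highest of them (replicate 1) passed the lowest non-restored library (replicate 6, 373 CPM) by a small margin. The fitted log2 fold change of restored against non-restored was -1.09 (SE 0.134), a ratio of mean CPM of 2.11. Across all 12636 genes tested, 1.87% were called in this comparison, which is given only as a scale because Itgav was chosen in it. The estimates of the other alpha subunits in this comparison were also below 0. They were -2.11 for Itga2 (SE 1.11), -0.85 for Itga6 (SE 0.4), -0.62 for Itga3 (SE 0.226) and -0.12 for Itga5 (SE 0.374).

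Itgb3 lies at chr11:104608000-104670476, plus strand. It had 11, 4.16, 6.15 and 3.35 CPM in KT libraries, from 5 to 16 counts each. Non-restored libraries held 16.8 to 108 CPM with a median of 38.2, and restored libraries held 4.46 to 9.51 CPM with a median of 5.87. Every non-restored library was above every restored and every KT library, and restored and KT libraries overlapped. The fitted change on restoration was -2.82 on the log2 scale (SE 0.35), a ratio of mean CPM of 7.02. Against the 4 tamoxifen-treated non-restored libraries alone the change was -1.19 for Itgav and -3.06 for Itgb3, and among female libraries alone it was -0.99 and -2.82.

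**Figure D2:**
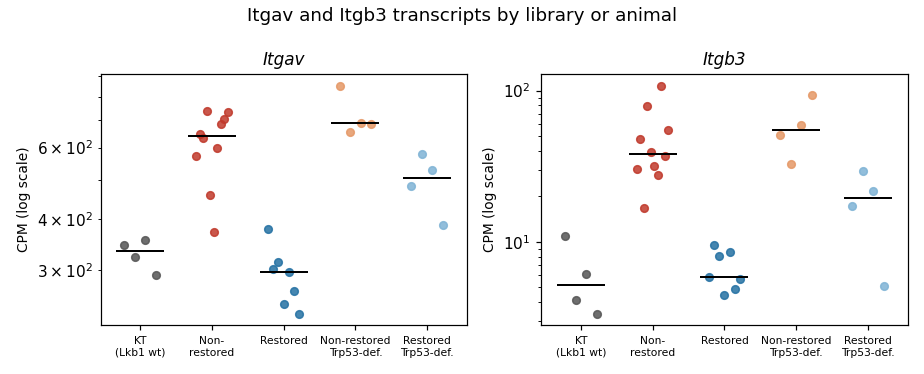
Itgav and Itgb3 in each library (Trp53 wild-type) or animal (Trp53-deficient). The y axes are CPM on a log scale and lines mark group medians. Non-restored libraries sit at 373 to 739 CPM for Itgav and 16.8 to 108 CPM for Itgb3, restored libraries at 235 to 378 and 4.46 to 9.51 CPM.

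Set against KT tumors, Itgav was 0.90 higher on the log2 scale in non-restored tumors (SE 0.165) and differed by -0.19 in restored tumors (SE 0.165). For Itgb3 these values were 2.95 (SE 0.468) and 0.13 (SE 0.472). These are descriptions too, because the non-restored and restored libraries are those that chose both genes.

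Whether Itgav and Itgb3 also fell on restoration in tumors without Trp53 was tested in the Trp53-deficient animals. The choice was taken to rest on Trp53 wild-type libraries, but it was made with earlier results of these data known. These tests may therefore not be independent of the choice. Itgav was 851, 654, 690 and 687 CPM in the 4 non-restored animals and 483, 578, 529 and 388 CPM in the 4 restored animals. Itgb3 was 51.2, 32.7, 59 and 93.2 CPM in non-restored animals and 17.4, 29.4, 21.6 and 5.13 CPM in restored animals. For both genes every restored animal was below every non-restored animal. How many of all genes separated these animals in the same way was not counted. The log2 fold change was -0.52 for Itgav (SE 0.163) and -1.65 for Itgb3 (SE 0.499), ratios of mean CPM of 1.46 and 3.21. Among female animals alone it was -0.63 and -1.95, uncalled in both cases. A two-sided exact permutation test of the mean log2 CPM gave p = 0.0286 for each gene, the smallest value that 4 against 4 allows. Full separation of the animals fixes that value, so it restates the ranges and adds no support. It was run for Itgav and Itgb3 only and is not adjusted for the number of genes. In edgeR's quasi-likelihood test over 12516 genes neither was called, with an unadjusted p of 0.0103 for Itgav and 0.00966 for Itgb3 and an adjusted p of 0.804 for both. That test called 0% of all genes in this comparison, with 748 at an unadjusted p under 0.05, and DESeq2 called 27 genes, of which 0 were among the 10 subunits. Whether restoration acted differently on these genes with and without Trp53 was not tested.

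The same Trp53-deficient animals were then set against KT tumors. The same limit on the choice of genes holds here, and the animals are those of the preceding comparison. Trp53-deficient non-restored animals differ from KT in Lkb1, Trp53, tumor age and treatment together, and these cannot be told apart. Of the 9 subunits tested, 4 rose and 0 fell, where 11.6% of all 13273 genes were called. Itgav rose by 1.13 on the log2 scale (SE 0.18, edgeR adjusted p = 0.000397) and Itgb3 by 3.26 (SE 0.546, adjusted p = 0.000814). Itgb1, at chr8:128685654-128733200 on the plus strand, rose by 0.79 (SE 0.145, adjusted p = 0.00147). Itga3, the laminin-binding subunit at chr11:95044474-95076801 on the minus strand, rose by 1.12 (SE 0.305, adjusted p = 0.0195). In all 4 cases the lowest non-restored animal was above the highest KT library. The share of all genes that did so was not counted. The call of Itga3 ended when KT replicate 1 was left out (adjusted p = 0.0744) and when non-restored animal 4 was left out (adjusted p = 0.0647). Of 7 alveolar type II markers 3 fell in the same comparison, Sftpa1 by 2.59, Abca3 by 1.02 and Sftpc by 2.13 on the log2 scale, and of the epithelial and mesothelial markers Cdh1 rose by 0.72 and Msln by 5.91. The summed alveolar type II level was 7920 to 50268 CPM in Trp53-deficient non-restored and 35268 to 53174 CPM in restored libraries, against 43684 to 86058 CPM in KT. The part of these shifts in the integrin values was not tested.

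In Trp53-deficient restored tumors 1 of the 9 tested subunits rose against KT, where 1.77% of all genes were called. Itgb1 was 0.60 higher on the log2 scale (SE 0.145, edgeR adjusted p = 0.0318), with 580, 589, 617 and 561 CPM in restored animals against 281, 422, 417 and 431 CPM in KT. Itgav was 0.59 higher (SE 0.178, adjusted p = 0.0758) and Itgb3 1.58 higher (SE 0.54, adjusted p = 0.11), and neither was called. All 4 restored animals were above every KT library for Itgav, and also for Itgb1, Itgb6 and Itga2. The share of all genes that did so was not counted. The other subunits overlapped KT, and for Itgb3 the lowest restored animal, at 5.13 CPM, was within the KT range. Itga5, the fibronectin-binding subunit, was 1.78 higher (SE 0.582, adjusted p = 0.0943), from 3.79, 5.68, 12.6 and 22 CPM. The call of Itgb1 ended without KT replicate 1 or 3 (adjusted p = 0.126 and 0.0558) and without each restored animal in turn (0.0535 to 0.0696), as well as with the length offset (0.0787), with only the groups compared (0.0576) and with each library as its own sample (0.0771). DESeq2 kept it and called Itgav as well (adjusted p = 0.0393). The comparisons with KT share its 4 libraries, so their values are not independent of each other.

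**Figure D3:**
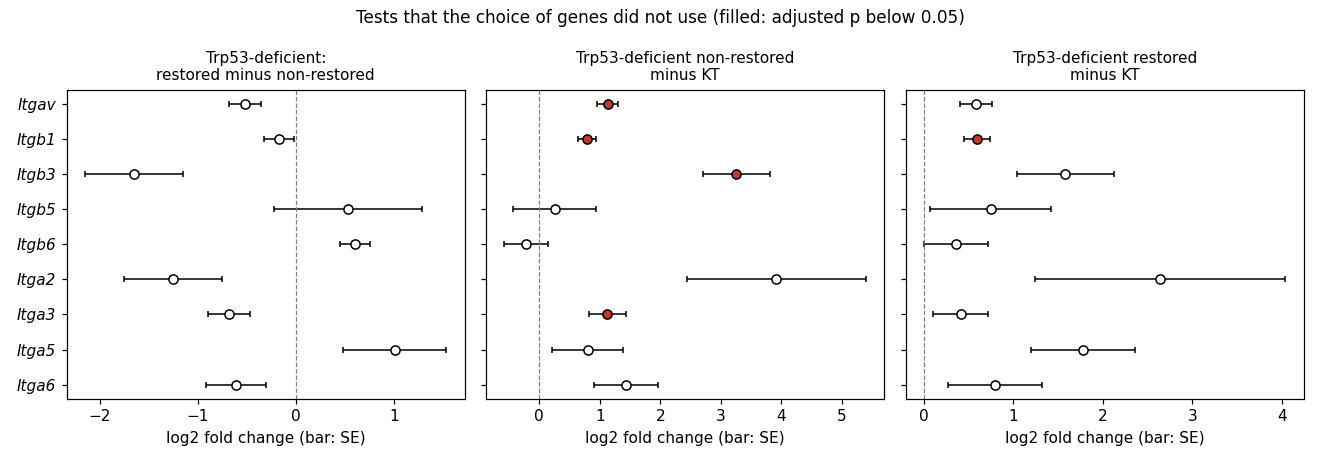
Fitted log2 fold changes of the 9 tested subunits in the 3 comparisons of Trp53-deficient animals. The choice of genes was taken not to have used them, but it was made with earlier results of these data known. Points are estimates and bars are 1 SE, and filled points have an edgeR adjusted p below 0.05. Filled points are Itgav, Itgb1, Itgb3 and Itga3 for Trp53-deficient non-restored against KT, and Itgb1 alone for Trp53-deficient restored against KT.

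Itgb1, the shared beta subunit, was the only one of the 7 tested subunits other than Itgav and Itgb3 that rose in Trp53 wild-type non-restored tumors against KT, where 5.86% of all genes were called. It ran from 435 through a median of 567 to 689 CPM in non-restored libraries, all of them above the highest KT library at 431 CPM. The log2 fold change was 0.56 (SE 0.129, edgeR adjusted p = 0.0112). KT replicate 1, at 281 CPM, was far below the other 3 KT libraries, and without it the change was 0.44 (adjusted p = 0.055). Among female libraries it was 0.43 (adjusted p = 0.262), and with an offset for effective gene length 0.49 (adjusted p = 0.0561).

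In restored tumors Itgb1 ran from 435 through 493 to 526 CPM, also above every KT library. Its change against KT was 0.33 on the log2 scale (SE 0.134, unadjusted p = 0.0223, edgeR adjusted p = 0.368), and 0 of the 7 subunits were called, where 0.459% of all genes were. By unadjusted p, Itgb1 was the only one of the 7 under 0.05, and DESeq2 called 0 of them as well. The fitted change between restored and non-restored tumors was -0.23 for Itgb1 (SE 0.105), small beside that of Itgav.

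Itgb6, the beta subunit most tied to epithelium, is at chr2:60598292-60722643, minus strand. It was narrow in KT, at 101, 98.3, 89 and 92 CPM, and wide in the other Trp53 wild-type groups. Non-restored libraries ran from 70.5 through 141 to 184 CPM, with 8 of 10 above the highest KT library. Restored libraries fell into a lower set of 4 between 61.3 and 70.5 CPM and 3 libraries at 115, 224 and 236 CPM. The latter are replicates 2, 4 and 5, and replicates 4 and 5 may share a mouse. The change of non-restored against KT was 0.54 (SE 0.347, edgeR adjusted p = 0.401). In Trp53-deficient tumors Itgb6 stood the other way from Itgav and Itgb3. It was 92.4, 88, 66.8 and 79.9 CPM in non-restored and 116, 107, 124 and 141 CPM in restored animals. Every restored animal was above every non-restored animal, and the share of all genes that separated in this way was not counted. The change was 0.60 on the log2 scale (SE 0.151, unadjusted p = 0.00265), which did not pass the adjustment (adjusted p = 0.804).

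Itga2, which forms the collagen receptor α2β1, lies at chr13:114833081-114932100, minus strand, and varied more than any other of the 10 subunits detected in every library. It was 118, 94.9, 150 and 169 CPM in KT. Non-restored libraries ran from 16.5 through a median of 121 to 3394 CPM, a ratio of 206 between the highest and the lowest. Far above the rest were replicates 4, 5 and 8 at 2424, 835 and 3394 CPM, against at most 192 CPM in the other 7. Restored libraries ran from 14.2 through 47.2 to 523 CPM, with replicates 4 and 5 at 519 and 523 CPM and the other 5 at or below 48.3 CPM. Counts of replicates 4 and 5 differed by a chi-square per degree of freedom of 7.21, against 25.6 to 48.5 between either and the other 5. The labels do not say whether they share a mouse, so they may not be independent.

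In the Trp53-deficient groups the lowest library, from non-restored animal 1, held 190 CPM of Itga2. With the libraries of an animal summed, Itga2 was 2437, 720, 2366 and 2536 CPM in non-restored and 300, 1187, 742 and 1094 CPM in restored animals. The change on restoration was -1.25 on the log2 scale (SE 0.495, unadjusted p = 0.0335, edgeR adjusted p = 0.804). Against KT, non-restored animals were 3.92 higher (SE 1.48, adjusted p = 0.0796) and restored animals 2.64 higher (SE 1.4, adjusted p = 0.304), and every animal of both groups was above every KT library. With only the groups compared in the fit, so that the wide Trp53 wild-type groups did not enter the estimate of spread, both passed (adjusted p = 0.00121 and 0.00952). DESeq2 also called the first (adjusted p = 0.0182). In Trp53 wild-type non-restored tumors the estimate against KT was 2.46 (SE 1.43, adjusted p = 0.345), although the medians were 121 and 134 CPM, and the 3 high libraries enter that estimate. It was 1.69 without non-restored replicate 8 and -0.23 with the replicate number as a block in the fit, uncalled in both. Replicates 8 and 4, with the highest Itga2, also had the lowest summed alveolar type II levels of their group (5793 and 31500 CPM), and the part of that in the Itga2 values was not tested.

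Libraries of 1 animal also differed in Itga2. The 3 non-restored libraries of Trp53-deficient animal 1 had 3536, 3750 and 190 CPM. The same 3 libraries had 619, 595 and 169 CPM of Itga6, 247, 260 and 88.8 CPM of Itga3, and 62.7, 82.2 and 16.2 CPM of Itgb3. The library at 190 CPM of Itga2 was the lowest of the 3 for all 4 genes. Its title holds T1, whereas the titles of the libraries at 3536 and 3750 CPM hold the word Bulk. They may therefore not be like samples. Animal 2 went the other way, with its library titled T1 the higher for all 4 genes. Its Bulk and T1 libraries held 577 and 903 CPM of Itga2 and 19.7 and 49 CPM of Itgb3. In animal 1 the library at 190 CPM also had the highest summed alveolar type II level of its group. That level was 50268 CPM, against 12844 and 12360 CPM in the libraries titled Bulk. The part of sample kind or alveolar type II level in the values was not tested.

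Itga6, the laminin-binding alpha subunit that can pair with β1 or β4, is at chr2:71745616-71858416, plus strand, and followed Itga2 from library to library. Its KT values were 225, 147, 163 and 129 CPM. In non-restored tumors replicates 4, 5 and 8 had 731, 340 and 603 CPM and the other 7 had 127 to 155 CPM. In restored tumors replicates 4 and 5 had 235 and 259 CPM and the other 5 had 75.4 to 127 CPM. Trp53-deficient non-restored animals held 457, 220, 551 and 566 CPM and restored animals 194, 330, 386 and 243 CPM. Against KT the non-restored change was 0.70 in Trp53 wild-type tumors (SE 0.489, edgeR adjusted p = 0.447; 0.39 without replicate 4, 0.47 without replicate 8 and 0.29 with a replicate block) and 1.43 in Trp53-deficient tumors (SE 0.533, adjusted p = 0.0761). The second passed in DESeq2 (adjusted p = 0.0397) and with only the groups compared (0.0144), and also without Trp53-deficient non-restored animal 2 (0.0431).

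Over 29 libraries or animals the log2 CPM of Itga2 and Itga6 had a Pearson r of 0.915, and 0.870 after group means were removed. For Itga2 and Itga3 these values were 0.843 and 0.732, and for Itga3 and Itga6 0.835 and 0.724. Itgb5, the vitronectin-receptor subunit, ran against them, with an r of -0.463 to Itga2 and -0.547 after removal of group means, at 0.456 to 21.4 CPM. Its 2 lowest values, 0.802 and 0.456 CPM, were in non-restored replicates 4 and 8. Itgb6 was not related to Itga2 in this way (r of 0.046 and 0.198). The points share library preparation and scaling, and these correlations are descriptions.

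**Figure D4:**
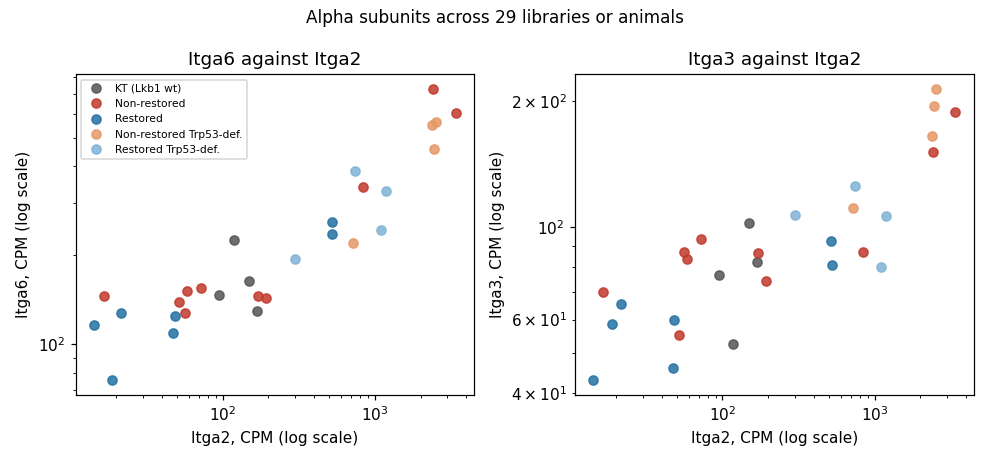
Itga6 (left) and Itga3 (right) against Itga2 in 29 libraries or animals, CPM on log scales, coloured by group. Non-restored libraries with 835 to 3394 CPM of Itga2 also hold the 3 highest Itga6 values of their group (340 to 731 CPM).

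Itga3 itself was 52.3, 76.6, 102 and 82.4 CPM in KT, 55 to 188 CPM with a median of 86.8 in non-restored and 42.9 to 92.7 CPM with a median of 60 in restored libraries. Its highest values were again in non-restored replicates 8 and 4 and restored replicate 4. In Trp53-deficient tumors it was 195, 111, 165 and 214 CPM without restoration and 107, 106, 125 and 80.1 CPM after it, a log2 fold change of -0.68 (SE 0.215, unadjusted p = 0.0101, edgeR adjusted p = 0.804).

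**Figure D5:**
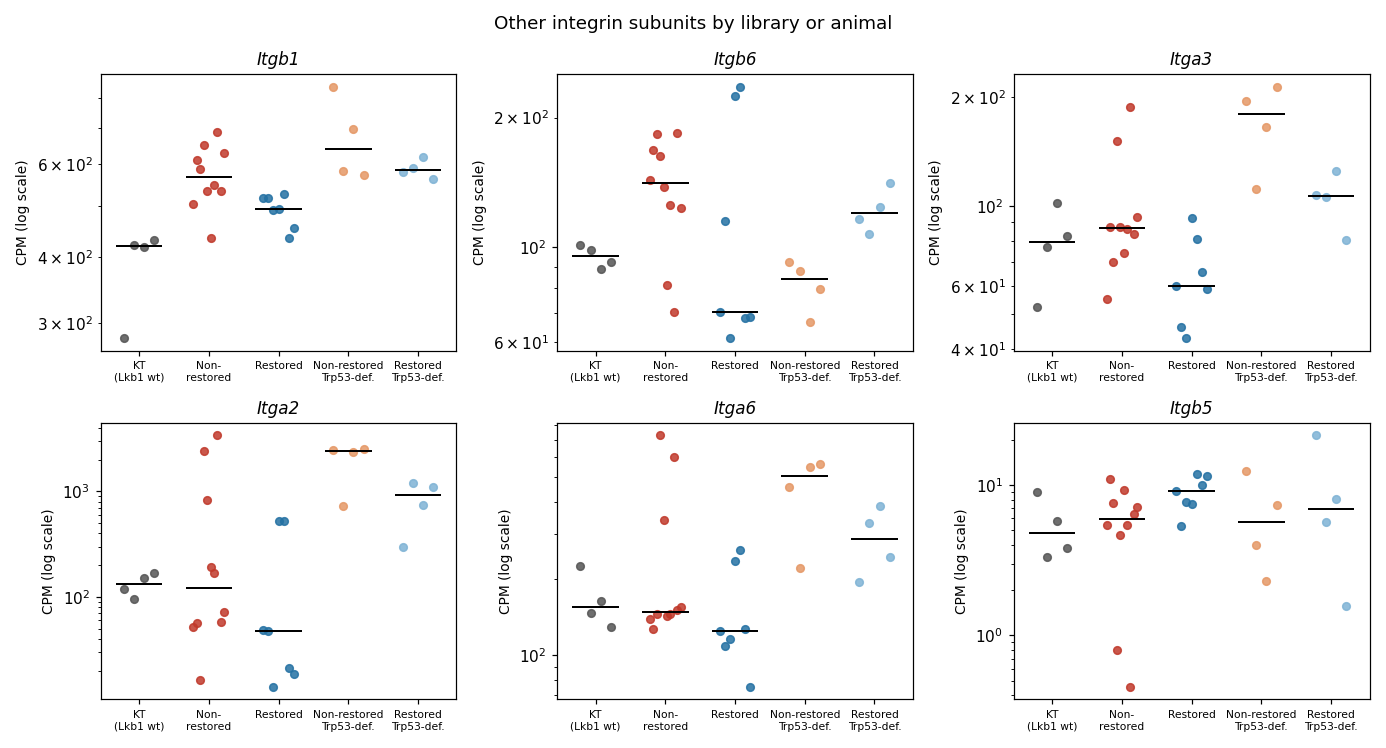
Levels of 6 further subunits by library or animal, CPM on log scales, with lines at group medians. Itgb1 is narrow within groups, and Itga2 spans 16.5 to 3394 CPM within the non-restored group.

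Itgb5 and Itga5 stayed near the limit of these libraries, with 2 to 97 and 3 to 56 counts, and neither was called in any comparison. Both agents of the non-restored group were compared with each other as well. Tamoxifen without FLPo-ERT2 against vehicle with it gave 0 of 9 subunits called by edgeR, where 0.00791% of all genes were called, and 0 of 9 at an unadjusted p under 0.05. DESeq2 also called 0. Itgav was 600 to 705 CPM in the 4 tamoxifen libraries and 373 to 739 CPM in the 6 vehicle libraries, and Itgb3 was 27.7 to 108 and 16.8 to 78.6 CPM. Agent and FLPo-ERT2 genotype differ together in this comparison.

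Because β3 is abundant on platelets and endothelium, markers of other cells were read beside Itgb3. By the study's methods the sort had removed cells positive for CD45, CD31, F4/80 or Ter119, which mark blood and endothelial cells. Itga2b, its platelet partner, had at most 8 counts in any library. The platelet list was Pf4, Ppbp, Gp9, Gp1bb, Gp6 and Itga2b. It summed to 17.5 to 78.5 CPM in KT, 3.26 to 12.3 CPM in non-restored and 4.15 to 20.6 CPM in restored libraries. Most of the KT sum was Pf4, at 15.8 to 75.7 CPM, while Ppbp and Gp6 were at 0 in all 4 KT libraries and Gp9 was at 0 in all non-restored and restored libraries. Of the 6 endothelial markers 0 were absent from a whole group, and their sum was 9.84 to 23.3 CPM in KT, 1.37 to 97.3 in non-restored and 3.72 to 69.2 in restored libraries. In Trp53-deficient libraries the endothelial sum was 5.02 to 42.5 CPM without and 2.23 to 69.6 CPM with restoration, and the platelet sum 5.02 to 16.1 and 15.3 to 21 CPM. The part of these cells in the Itgb3 values was not tested.

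Ranges of the other marker lists differed between groups. The 8 immune markers summed to at most 157 CPM, and Cd3e was at 0 in 4 of the 5 groups. Fibroblast markers summed to 13.9 to 79.1 CPM in KT, 6.39 to 414 in non-restored and 26.5 to 252 in restored libraries, and reached 1488 CPM in 1 Trp53-deficient restored library, animal 1, which also had the highest Itgb5 (21.4 CPM). Erythroid genes summed to at most 6.97 CPM, and airway genes to 3.09 to 227 CPM. Alveolar type II markers, from Sftpc to Napsa, summed to 43684 to 86058 CPM in KT, 5793 to 70597 in non-restored and 40489 to 106308 in restored libraries. The mesothelial list, which is mostly Msln here, summed to at most 7.67 CPM in KT, 250 CPM in non-restored, 58 CPM in restored and 326 CPM in Trp53-deficient non-restored libraries. The other 3 genes of that list (Upk3b, Wt1 and Lrrn4) reached at most 4.04, 0.343 and 2.48 CPM in the Trp53-deficient libraries. The part of these lists in the integrin values was not tested.

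Genes of the wider pathway were counted from lists chosen with earlier results known. Among receptors, the list of 16 other integrins had 8 members expressed well enough to test in Trp53 wild-type tumors. Itga1, a collagen-binding alpha subunit, fell in non-restored tumors against KT by 1.56 on the log2 scale (edgeR adjusted p = 0.00493), and 0 rose. Over all genes 5.86% were called there. In Trp53-deficient non-restored tumors against KT 0 of 9 were called, beside 11.6% of all genes.

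Ligands of the alpha v receptors and the TGF-beta carriers formed a list of 16. Against KT, 1 of 14 rose in non-restored tumors and 0 fell, and in the Trp53-deficient groups 2 of 15 rose without and 3 of 15 with restoration, with 0 falling in either. Over all genes 5.86%, 11.6% and 1.77% were called in these 3 comparisons. Mfge8, a secreted protein with an RGD motif, rose by 1.21, 1.83 and 1.49 in the 3 comparisons (adjusted p = 0.0416, 0.00341 and 0.0352). Ltbp1, which carries latent TGF-beta into the matrix, rose by 2.27 and 3.58 in the Trp53-deficient groups (adjusted p = 0.026 and 0.00587). The list's median log2 change was 0.24 in non-restored tumors, against 0.03 for all genes.

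Of 15 basement membrane ligands tested, which α2, α3 and α6 receptors bind, 3 rose against KT in non-restored tumors and 0 fell, beside 5.86% of all genes called. Lamb2, a laminin beta chain, rose by 0.71 (adjusted p = 0.00241), Hspg2, the proteoglycan perlecan, by 1.40 (adjusted p = 0.0112) and Nid1, nidogen, by 1.56 (adjusted p = 0.0375). In restored tumors 0 of 15 were called by edgeR, beside 0.459% of all genes. On restoration in Trp53 wild-type tumors 2 of the 15 were called, Hspg2 at -1.47 and Lamc1 at -0.41, both lower, beside 1.87% of all genes. The list's median change was 0.54 in non-restored and -0.15 in restored tumors against KT, beside 0.03 and 0.01 for all genes. On restoration in Trp53-deficient tumors 0 of 15 were called, beside 0% of all genes. There 12 of 15 were higher, with a median change of 0.15. Against KT 2 of 15 rose in each Trp53-deficient group and 0 fell, beside 11.6% and 1.77% of all genes. These were Lamb2 and Nid1, at 0.79 and 2.74 without restoration and 1.00 and 3.11 with it.

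Inside the cell, 20 adaptors that couple integrins to actin were tested, in comparisons with KT that called 5.86% of all genes for non-restored, 0.459% for restored and 11.6% for Trp53-deficient non-restored tumors. Against KT, Flna, an actin crosslinker that binds beta tails, rose in non-restored tumors by 0.90 (adjusted p = 0.0221), and Lims1, a partner of integrin-linked kinase, fell by 0.62 (adjusted p = 0.00915). Lims1 also fell in restored tumors, by 0.86 (adjusted p = 0.00714). In Trp53-deficient non-restored tumors 4 of 21 rose and 2 fell, with Zyx, a focal adhesion protein, 2.37 higher (adjusted p = 0.0196). Of 12 membrane partners 0 were called in the Trp53 wild-type comparisons, and 2 rose in Trp53-deficient non-restored tumors against KT, the tetraspanins Cd9 by 1.33 (adjusted p = 0.00588) and Cd151 by 0.63 (adjusted p = 0.0401).

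Among 11 genes of the TGF-beta response, 2 rose in non-restored tumors against KT and 0 fell, beside 5.86% of all genes called. Tgfbr2, the type II receptor, rose by 0.93 (adjusted p = 0.000943) and Pmepa1, a feedback inhibitor, by 0.73 (adjusted p = 0.00375). In restored tumors 0 of 11 were called. On restoration, where 1.87% of all genes were called, 3 were lower, Tgfbr2 at -0.69, Pmepa1 at -0.51 and Tgfbi, a secreted matrix protein, at -1.61. In Trp53-deficient non-restored tumors Tgfbr2 and Pmepa1 rose again, by 0.78 and 0.68 (adjusted p = 0.0094 and 0.0135), together with Tgfbr1, beside 11.6% of all genes called. Pmepa1 alone was called in Trp53-deficient restored tumors against KT, 0.67 higher (edgeR adjusted p = 0.042), beside 1.77% of all genes. On restoration in Trp53-deficient tumors 0 of 11 were called, beside 0% of all genes.

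The ranking of genes by likeness to Itgav and Itgb3 includes the restored and non-restored libraries in which both were chosen, so their high r to each other restates that choice. The genes whose log2 CPM was most like that of Itgav over the 29 libraries or animals, among 13273 genes, were Itgb3 (r = 0.883), Stxbp6 (0.870), Ptprn (0.850), Impad1 (0.845) and Hspg2 (0.837). After removal of group means these values were 0.485, 0.574, 0.123, 0.727 and 0.648. The genes most like Itgb3 were Itgav (0.883), Ptprn (0.860), Morc1 (0.859), Btbd3 (0.855) and Ttc9 (0.852), with 0.485, 0.180, 0.474, 0.654 and 0.643 after removal of group means. Within groups, therefore, Itgav and Itgb3 were less alike than over all groups, and Ptprn was hardly like either.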

How the data were processed

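RNA sequencing of sorted tumor cells, with a kit that depletes ribosomal RNA, gave 32 libraries. Per the submitters' processing notes, STAR 2.6.1d, RSEM 1.2.30 and DESeq2 1.26.0 were used with the genome mm10. The authors deposited expected counts, which are RSEM's estimates of reads per gene without normalization and share reads between genes that resemble each other (5.57% of values were not whole). The authors also deposited TPM values, scaled by RSEM for effective length and library size. Tables of the authors' own fold changes and p-values, and a normalized table, were not used.

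Expected counts were rounded. Libraries of 1 Trp53-deficient animal were summed, those titled Bulk together with those titled T1, which gave 29 libraries or animals. For other groups the labels do not tie libraries to animals. The study counts fewer mice than libraries for Trp53 wild-type non-restored and restored tumors. By that count some libraries share a mouse, yet the p-values treat libraries as independent. Genes were filtered with filterByExpr, scaled by TMM and tested with edgeR's quasi-likelihood test (edgeR 4.0.16, limma 3.58.1, R 4.3.3), with Benjamini-Hochberg adjustment over all genes tested and a threshold of 0.05. Trp53 wild-type libraries were fitted together, restoration in Trp53-deficient animals was fitted on those 8 animals, and their comparisons with KT on all 29. Logs for correlations used a prior count of 2. Wherever the values of 1 group lie wholly above or below another's, the share of all genes that did the same was not counted. A count of 0 allows up to 3 counts, or 0.505 to 2.3 CPM over the libraries, for counting error only. Coordinates are from GENCODE M21 on GRCm38, the build of the files. DESeq2 1.42.0, other scalings and filters (at least 10 counts in every library among them), length offsets, sexes, arms and left-out libraries were alternatives.

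The subunits and all gene lists were chosen with earlier results of these data known. Named genes are the subunits, Stk11 and Trp53 as label checks, up to 4 genes per list by smallest adjusted p, and the 5 genes most correlated with Itgav and with Itgb3. Cell type markers were named from fixed lists.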

Additional observations from a re-analysis of the deposited data

Results flagged for a closer look

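Each subunit was checked in each of the 5 groups for a library or animal far from the others of its group by Dixon's criterion on CPM. Of 50 such sets 4 stood out, and chance flags about 1 in 20. Itgb1 in KT replicate 1 was 281 CPM, with the next library at 417 CPM. Itga2 in Trp53-deficient non-restored animal 2 was 720 CPM, with the other 3 at 2366 CPM or above. Itgb8 was 5.87 CPM in non-restored replicate 10, and the next library was at 1.99 CPM. In restored replicate 2 Itgb8 was 5.33 CPM, and the next library was at 2.3 CPM. Both Itgb8 values rest on at most 14 counts.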

How the results depend on the processing

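The fall of Itgav and Itgb3 on restoration in Trp53 wild-type tumors kept its direction in every alternative run. Without 1 library at a time it was -1.15 to -1.04 for Itgav and -2.92 to -2.59 for Itgb3. Subunits called in non-restored tumors against KT, 1 of 7, came to 0 with length offsets and 0 among female libraries, and to 0 to 1 without 1 library at a time, with 0 only without KT replicate 1. In Trp53-deficient restored tumors against KT, 1 of 9 came to 2 with DESeq2, to 0 with length offsets, 0 with each library as its own sample, and 0 to 1 without 1 library or animal at a time. In Trp53-deficient non-restored tumors against KT, 4 of 9 ran from 3 to 6 over the alternatives. The cause of these shifts was not tested.

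Groups share replicate numbers in the labels. Deviations from group means of same-numbered libraries correlated above 0.1 in 5 of 7 pairs of non-restored and restored libraries (0.06 to 0.48), in 1 of 4 of KT and non-restored and in 0 of 4 of KT and restored. Libraries with different numbers were not correlated, so this check cannot decide whether the numbers are pairs. They were not taken as pairs in the main fit. Replicates 4 and 5 held high Itga2 and Itga6 in both the non-restored and the restored group. With a replicate block, restoration changed Itgav by -0.97 and Itgb3 by -2.47, 1 subunit (Itgb1, 0.58) was called in non-restored and 0 in restored tumors against KT, and the estimate of Itga2 in non-restored tumors turned to -0.23, uncalled in both fits.

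Counts over all genes moved more. DESeq2 called 174 genes against 58 for restored against KT, 473 against 236 for restoration in Trp53 wild-type tumors, 27 against 0 in Trp53-deficient tumors, 680 against 235 for Trp53-deficient restored against KT, and 4 against 1 between the arms. Female libraries alone gave 132 against 741 for non-restored and 10 against 58 for restored against KT, and the tamoxifen arm alone 280 against 741 and 50 against 236. Without a filter 944 genes against 1539 were called for Trp53-deficient non-restored and 114 against 235 for Trp53-deficient restored against KT, 3 against 0 for restoration in Trp53-deficient tumors and 0 against 1 between the arms. With at least 10 counts in every library, 20 against 58 and 156 against 235 were called for the restored groups of each Trp53 background against KT. With only the groups compared in the fit, 566 against 235 were called for Trp53-deficient restored against KT and 0 against 1 between the arms. Restoration in Trp53-deficient tumors gave 1 against 0 with length offsets, with each library as its own sample and without non-restored animal 3. Without 1 library or animal at a time, the lowest counts were 340 against 741 (non-restored), 21 against 58 (restored), 636 against 1539 and 53 against 235 (Trp53-deficient non-restored and restored) for comparisons with KT, 145 against 236 for restoration in Trp53 wild-type tumors and 0 against 1 between the arms. At the depth of these libraries Itgb8 could not be tested, and Itgb5, Itga5 and, in KT, Itgb3 rest on few reads.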
